A study of Mus musculus with 6 samples.

Results

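Transcript levels of 9 genes of hemidesmosomes and basal cell adhesion were followed along the mouse epididymis in sorted clear cells. The genes were taken by name from the table of RPKM values, 9 of 37578 genes in all: Itga6 (ENSMUSG00000027111), Itgb4 (ENSMUSG00000020758), Itga3 (ENSMUSG00000001507), Col17a1 (ENSMUSG00000025064), Dst (ENSMUSG00000026131), Plec (ENSMUSG00000022565), Lama3 (ENSMUSG00000024421), Lamb3 (ENSMUSG00000026639) and Trp63 (ENSMUSG00000022510). All 9 had enough reads to enter the tests. The 3 groups were clear cells of the caput, the corpus and the cauda epididymidis, which follow one another along the duct where sperm mature, with 2 libraries each. Every library pooled 12 epididymides from untreated mice aged 12 weeks, and all groups carried the same transgene, EGFP driven by the promoter of ATP6V1B1, a proton pump subunit gene. Cells were sorted for EGFP in a double pass, so that a cell entered a library through the activity of that promoter, and 1 library is a pool of animals rather than 1 animal.

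Hemidesmosomes rivet epithelial cells to the basement membrane. The integrin made of the Itga6 and Itgb4 chains and the transmembrane collagen of Col17a1 bind the matrix from outside, and the plakins of Dst and Plec tie them to keratin filaments within the cell. Their ligand is a laminin trimer that holds the Lama3 and Lamb3 chains, which the integrin of Itga3 and Itgb1 also binds. Trp63 encodes p63, the transcription factor that defines basal cells of stratified and pseudostratified epithelia. In the epididymis, basal cells sit on the basement membrane beneath the principal and clear cells.

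The libraries held 18887128 to 24700717 reads in genes. RPKM, reads per kilobase of gene and by library size as deposited, compares levels between genes, and fold changes come from edgeR's quasi-likelihood test on counts with Benjamini-Hochberg adjustment over 15816 genes, a gene being called at an adjusted p under 0.05. Clear cell markers were present in every library but unevenly: the summed RPKM of 12 markers was 3518 and 3369 in caput, 1099.5 and 1297 in corpus, then 386 and 488 in cauda. Of these 12 markers, 11 were called higher and 1 (Car2) lower in caput than in corpus. In caput 12 were higher than in cauda, and in corpus 10 were higher than in cauda. Of all tested genes, 33.2% were called higher and 31.8% lower in caput than in corpus, and 33.9% and 33.0% in caput than in cauda. Between corpus and cauda the shares were 17.3% and 18.0%. The summed RPKM of 12 principal cell markers was 6498 and 7153 in caput, 56515 and 64616 in corpus, then 107478 and 98641 in cauda. The corpus and cauda sums were mostly 2 genes. Crisp1 had 30292 and 37752 RPKM in corpus and 53189 and 50600 RPKM in cauda. Cd52 had 22230 and 22532 RPKM in corpus and 50729 and 44406 RPKM in cauda. Of the 12, 4 markers were higher and 7 lower in caput than in corpus, 6 and 6 against cauda, and 3 and 4 between corpus and cauda. The basal cell keratins Krt5 and Krt14 were read in every library. Krt5 had 16.2 and 23.2 RPKM in caput, 4.58 and 2.40 RPKM in corpus, and 5.00 and 2.71 RPKM in cauda. Krt14 had 27.8 and 44.4 RPKM in caput, 9.81 and 6.76 RPKM in corpus, and 7.62 and 6.69 RPKM in cauda. Krt15, another basal keratin, had 30.1 and 56.2 RPKM in caput, 19.1 and 12.4 RPKM in corpus, and 36.2 and 24.2 RPKM in cauda, and was not called in any comparison (adjusted p = 0.0623, 0.431 and 0.216, edgeR). In such bulk samples fewer cells of a type and less RNA per cell cannot be told apart, and the part of clear, principal and basal cell content in the values below was not tested.

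The chains of the hemidesmosomal integrin did not move together along the duct. Itgb4, the chain whose long cytoplasmic tail recruits plectin, had 5.69 and 4.61 RPKM in the caput libraries, 0.948 and 0.650 RPKM in corpus, and 0.713 and 0.570 RPKM in cauda. The caput libraries stood well above the others, while corpus and cauda overlapped. Itgb4 was higher in caput by 2.63 ± 0.20 log2 against corpus (SE, adjusted p = 3.46e-06, edgeR) and by 2.94 ± 0.21 log2 against cauda (adjusted p = 1.63e-06), and corpus against cauda was not called at 0.31 ± 0.23 log2 (adjusted p = 0.328). Itga6, the only alpha chain known to pair with Itgb4, had 1.64 and 1.97 RPKM in caput, 4.47 and 5.13 RPKM in corpus, and 1.28 and 1.03 RPKM in cauda. Here the corpus libraries were the high ones, and no region overlapped another. Itga6 was lower in caput than in corpus at -1.47 ± 0.15 log2 (adjusted p = 2.49e-05) and higher in corpus than in cauda by 2.06 ± 0.16 log2 (adjusted p = 1.49e-05). Its difference between caput and cauda was small, 0.58 ± 0.16 log2 (adjusted p = 0.0104, edgeR), and was not called with caput 2 left out (adjusted p = 0.0519), with cauda 2 left out (adjusted p = 0.0967) or with the trend on gene length removed (adjusted p = 0.416). Scaled by library totals it was 1.44 log2.

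**Figure D1:**
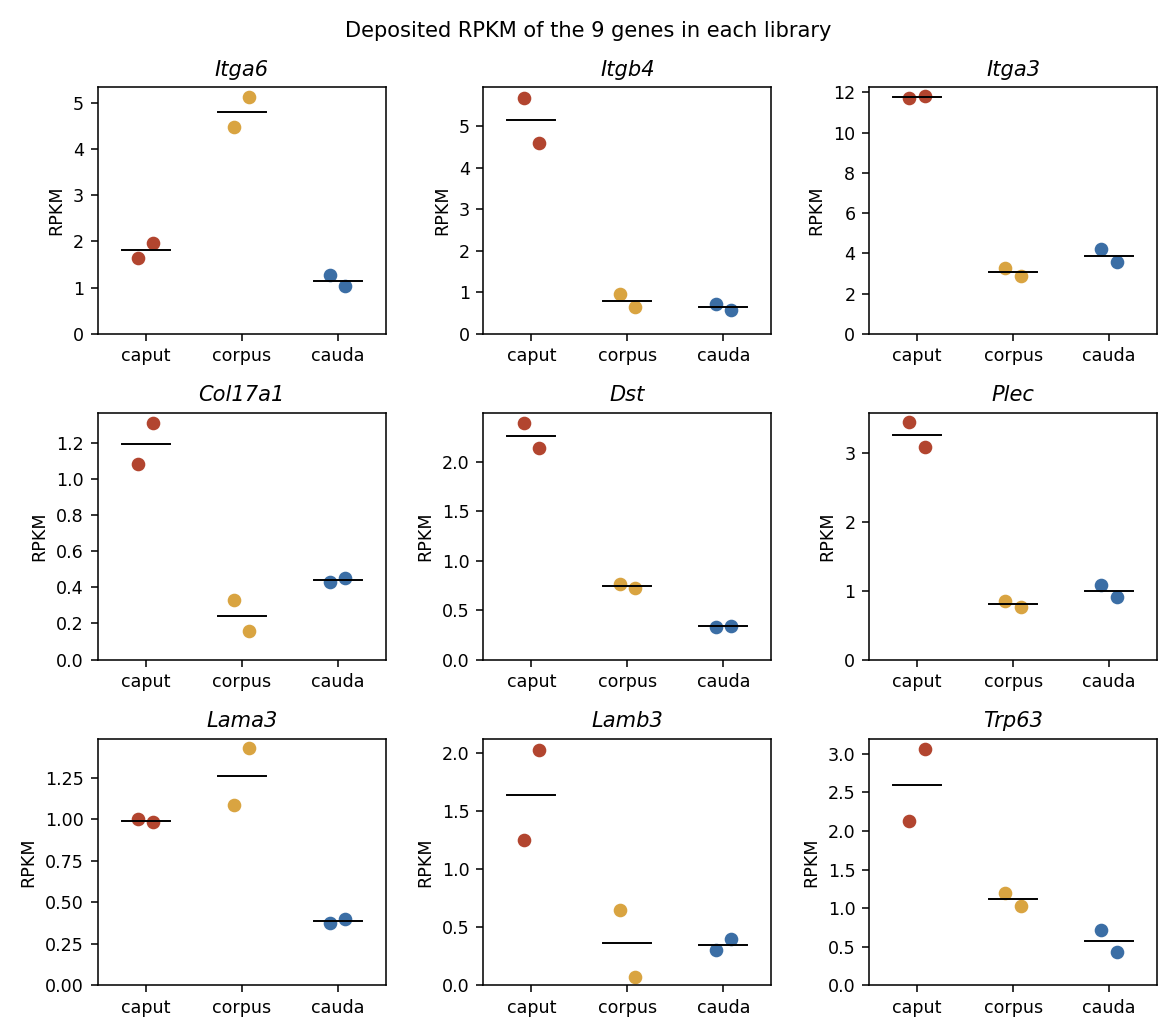
Deposited RPKM (vertical axes, linear from 0, a scale for each gene) of the 9 genes in caput, corpus and cauda; points are libraries and bars the mean of 2. Caput is the highest region for 7 genes, and corpus for Itga6 (4.47 and 5.13 RPKM) and Lama3 (1.08 and 1.43 RPKM).

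The ratio of RPKM of Itga6 to Itgb4 was 0.288 and 0.427 for caput, 4.71 and 7.89 in corpus, then 1.79 and 1.80 in cauda. By RPKM, Itgb4 was the more abundant chain in caput and Itga6 in the other regions, with no overlap between any regions. The ratio has 2 values a region and was not tested. Itga6 can also pair with Itgb1, the beta chain shared by most matrix integrins, which had 97.6 and 92.6 RPKM in caput, 45.7 and 45.5 RPKM in corpus, and 39.4 and 38.3 RPKM in cauda. Cd151, a tetraspanin that binds laminin receptors and belongs to hemidesmosomes, had 36.5 and 29.0 RPKM in caput, 18.6 and 16.0 RPKM in corpus, and 14.7 and 16.2 RPKM in cauda. Both exceeded Itga6 and Itgb4 in RPKM in every library.

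Itga3, the alpha chain of the laminin receptor found outside hemidesmosomes, had the highest mean RPKM of the 9 genes in caput and cauda. It had 11.7 and 11.8 RPKM in caput, 3.25 and 2.88 RPKM in corpus, and 4.23 and 3.55 RPKM in cauda. The caput libraries were alike and far above the rest, and the corpus libraries lay below both cauda libraries. Itga3 was higher in caput by 1.88 ± 0.12 log2 against corpus (adjusted p = 7.16e-07, edgeR) and by 1.53 ± 0.11 log2 against cauda (adjusted p = 2.03e-06). It was called lower in corpus than in cauda at -0.35 ± 0.12 log2 (adjusted p = 0.0452), a call that 9 of 17 alternative settings did not make (adjusted p up to 0.628). The libraries whose omission ended it were caput 1 (adjusted p = 0.0503), corpus 1 (0.0796), corpus 2 (0.240) and cauda 1 (0.284). Its ratio to Itga6 was 7.16 and 6.00 in caput, 0.728 and 0.561 in corpus, then 3.31 and 3.46 in cauda, with Itga6 the more abundant alpha chain by RPKM in both corpus libraries.

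**Figure D2:**
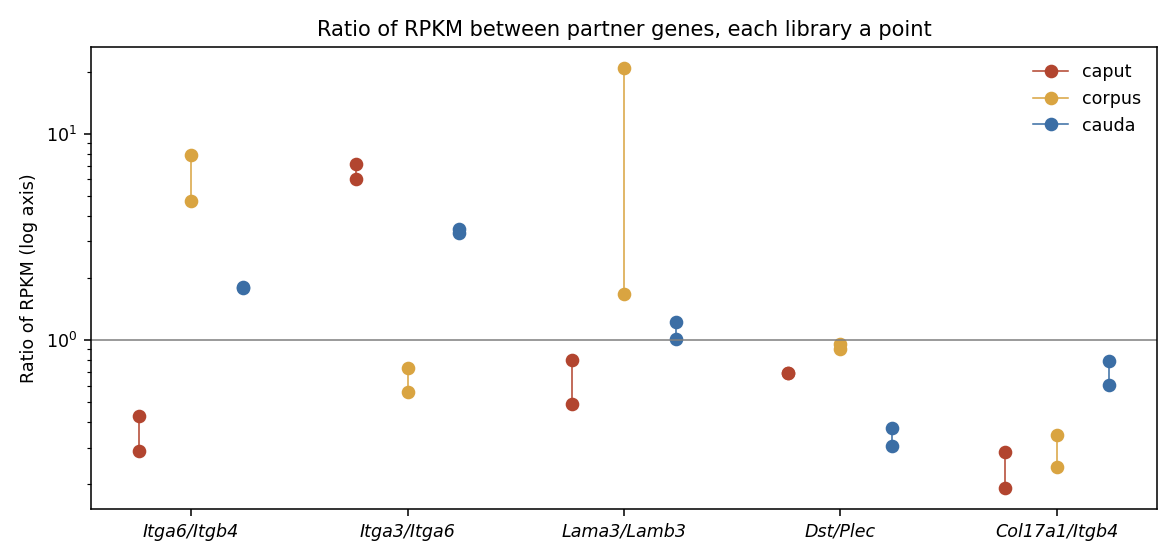
Ratio of deposited RPKM (log axis) between genes whose proteins work together, by region; points are libraries, joined within a region, and the grey line marks equal RPKM. The Itga6 to Itgb4 ratio lies below 1 in caput (0.288 and 0.427) and above 1 in corpus and cauda, and the Lama3 to Lamb3 ratio spreads widest in corpus.

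Dst and Plec, the plakins that link hemidesmosomes to keratin, were both highest in caput. Plec had 3.45 and 3.09 RPKM in caput, 0.845 and 0.763 RPKM in corpus, and 1.09 and 0.908 RPKM in cauda. Dst had 2.39 and 2.14 RPKM in caput, 0.759 and 0.728 RPKM in corpus, and 0.331 and 0.339 RPKM in cauda. The regions did not overlap for either gene, and the corpus libraries were the lowest for Plec and the middle ones for Dst. Plec was higher in caput by 1.96 ± 0.12 log2 against corpus (adjusted p = 6.64e-07, edgeR) and by 1.65 ± 0.12 log2 against cauda (adjusted p = 1.52e-06), with corpus against cauda at -0.31 ± 0.12 log2 and not called (adjusted p = 0.0733). That last difference was called with the trend on gene length removed (-0.55 log2, adjusted p = 0.00310), with a filter at 10 CPM (0.0452) and without cauda 2 (0.0489). Dst was higher in caput by 1.55 ± 0.10 log2 against corpus (adjusted p = 1.28e-06) and by 2.69 ± 0.11 log2 against cauda (adjusted p = 5.26e-08), and higher in corpus than in cauda by 1.15 ± 0.11 log2 (adjusted p = 5.90e-05). With the trend on gene length removed, caput against cauda was 1.97 log2 for Dst and 0.97 log2 for Plec, both called (adjusted p = 3.35e-07 and 2.65e-05). The ratio of Dst to Plec was 0.693 in both libraries of caput, 0.898 and 0.953 in corpus, then 0.304 and 0.374 in cauda.

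Col17a1, the transmembrane collagen of hemidesmosomes, was sparse. It had 1.08 and 1.31 RPKM in caput, 0.329 and 0.157 RPKM in corpus, and 0.431 and 0.451 RPKM in cauda, from 203 and 215, 34 and 18, and 43 and 48 reads. Caput was high in both libraries and corpus low in both. Col17a1 was higher in caput by 2.24 ± 0.35 log2 against corpus (adjusted p = 0.000392, edgeR) and by 1.37 ± 0.33 log2 against cauda (adjusted p = 0.00499). Against corpus the value was 2.85 log2 without corpus 1 and 1.80 log2 without corpus 2, called in both cases. Corpus against cauda stood at -0.87 ± 0.37 log2 and was not called (adjusted p = 0.0985), and without corpus 1, the corpus library with more Col17a1 reads, it stood at -1.47 log2 and was called (adjusted p = 0.0330). The ratio of Col17a1 to Itgb4 was 0.190 and 0.284 in caput, 0.347 and 0.242 in corpus, then 0.604 and 0.791 in cauda.

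The start regions of 3 of these genes that were highest in caput are shown, with both listed starts of Dst and 1 of the 2 of Itga3; the counts sum over all starts of a gene. They are RefSeq windows on GRCm38.p6, 250 bases before to 50 after a start, written 5′ to 3′ on the gene's strand, whereas the submitters' processing notes name mm9. Of the 9 genes, 4 had windows in the table (Itga3, Col17a1, Dst and Lamb3), and Itga6, Itgb4, Plec, Lama3 and Trp63 had no entry. Capitals mark matches, on either strand, to the GC box (GGGCGG or CCGCCC), the TATA box (TATAAA or TTTATA) and the p53-family half-site, which p63 shares with p53. A match describes these letters and not binding. Of 32851 windows, 35.7% held a GC box, 13.6% a TATA box and 8.36% a half-site.
Itga3, chr11:95076665-95076964, minus strand: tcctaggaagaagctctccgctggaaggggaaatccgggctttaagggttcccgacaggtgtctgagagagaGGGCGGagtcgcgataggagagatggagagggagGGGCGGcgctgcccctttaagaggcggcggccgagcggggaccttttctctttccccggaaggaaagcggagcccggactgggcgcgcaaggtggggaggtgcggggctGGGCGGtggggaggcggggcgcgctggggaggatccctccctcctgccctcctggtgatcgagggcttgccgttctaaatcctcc
Col17a1, chr19:47691993-47692292, minus strand: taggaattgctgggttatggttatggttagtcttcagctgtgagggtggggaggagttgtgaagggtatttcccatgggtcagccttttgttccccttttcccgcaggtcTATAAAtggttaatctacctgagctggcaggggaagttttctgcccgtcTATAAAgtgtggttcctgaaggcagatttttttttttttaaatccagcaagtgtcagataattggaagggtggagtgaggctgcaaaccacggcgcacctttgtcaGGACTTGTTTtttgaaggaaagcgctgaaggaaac
Dst, upstream start, chr1:34011345-34011644, plus strand: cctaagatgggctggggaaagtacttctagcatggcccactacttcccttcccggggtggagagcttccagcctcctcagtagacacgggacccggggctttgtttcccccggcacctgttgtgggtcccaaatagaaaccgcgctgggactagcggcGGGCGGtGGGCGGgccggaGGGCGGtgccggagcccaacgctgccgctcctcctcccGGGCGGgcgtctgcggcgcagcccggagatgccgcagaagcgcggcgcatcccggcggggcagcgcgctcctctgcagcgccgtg
Dst, downstream start, chr1:34160010-34160309, plus strand: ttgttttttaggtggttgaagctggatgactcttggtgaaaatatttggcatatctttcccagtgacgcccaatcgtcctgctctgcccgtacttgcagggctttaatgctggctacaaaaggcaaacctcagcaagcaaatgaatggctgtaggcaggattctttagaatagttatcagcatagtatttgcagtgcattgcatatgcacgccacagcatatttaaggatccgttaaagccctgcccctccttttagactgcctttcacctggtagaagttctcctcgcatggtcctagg
The Itga3 window shown held 3 GC boxes at 66.7% G and C, a second Itga3 window, not printed, held 1 at 52.3%, and the upstream Dst window 4 at 70.3%. The downstream Dst window held none of the 3 motifs at 46% G and C, and the Col17a1 window held 2 TATA boxes and 1 half-site at 46.3%. The Lamb3 windows, not printed, held none of the 3 motifs, each at 59.3% G and C. GENCODE M21 lists 3 coding transcripts of 8788 to 16340 bases that begin within 200 bases of the downstream Dst start. It lists 0 within 200 bases of the upstream start. Dst is known to make neuronal, muscle and epithelial isoforms from different starts. The longest coding transcript of Dst in GENCODE M21 has 23279 bases and begins at base 34011825, nearer the upstream start. The deposited RPKM is per 29746 bases. The counts do not say which start the Dst reads came from.

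Lama3 and Lamb3, chains of the laminin that hemidesmosomes bind, also differed in pattern. Lama3 had 1.00 and 0.982 RPKM in caput, 1.08 and 1.43 RPKM in corpus, and 0.372 and 0.400 RPKM in cauda. The cauda libraries were low and did not overlap the others, and caput lay just below corpus. Lama3 was higher in caput than in cauda by 1.29 ± 0.19 log2 (adjusted p = 0.000269, edgeR) and higher in corpus than in cauda by 1.70 ± 0.20 log2 (adjusted p = 0.000156). Caput against corpus was not called, at -0.41 ± 0.18 log2 (adjusted p = 0.0715), and with scaling by library totals the value turned to 0.19 log2 (adjusted p = 0.356). It was called lower in caput in 4 of 17 alternatives, which were removal of the trend on gene length (-0.79 log2, adjusted p = 0.00546), the same with a replicate block (0.00280), a filter at 10 CPM (0.0437) and omission of corpus 1 (0.0351). Lamb3 had 1.25 and 2.02 RPKM in caput, 0.650 and 0.0690 RPKM in corpus, and 0.303 and 0.396 RPKM in cauda. Its corpus libraries differed more from each other than from cauda, the reads being 178 and 252 in caput, 51 and 6 in corpus, then 23 and 32 in cauda.

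Lamb3 was higher in both caput libraries than in every other library, yet edgeR called it in no comparison. The values were 2.15 ± 0.84 log2 for caput against corpus (adjusted p = 0.0683, edgeR) and 2.16 ± 0.84 log2 for caput against cauda (adjusted p = 0.0665), with corpus against cauda at 0.01 ± 0.91 log2 (adjusted p = 0.995). Of 16 alternatives, 6 called it against corpus and 6 against cauda, among them DESeq2 (adjusted p = 0.0131 and 0.0119) and scaling by library totals (adjusted p = 0.0333 and 0.0228). With corpus 1 or corpus 2 left out, caput against cauda was called at 2.16 log2 in either case (adjusted p = 0.00143 and 0.00127). Caput against corpus then moved to 4.47 log2 without corpus 1 and 1.27 log2 without corpus 2 (adjusted p = 0.000607 and 0.0401), and corpus against cauda to -2.31 log2 without corpus 1 (adjusted p = 0.0320). The ratio of Lama3 to Lamb3 was 0.800 and 0.486 in caput, 1.67 and 20.7 in corpus, then 1.23 and 1.01 in cauda, the corpus 2 value resting on the 6 Lamb3 reads.

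**Figure D3:**
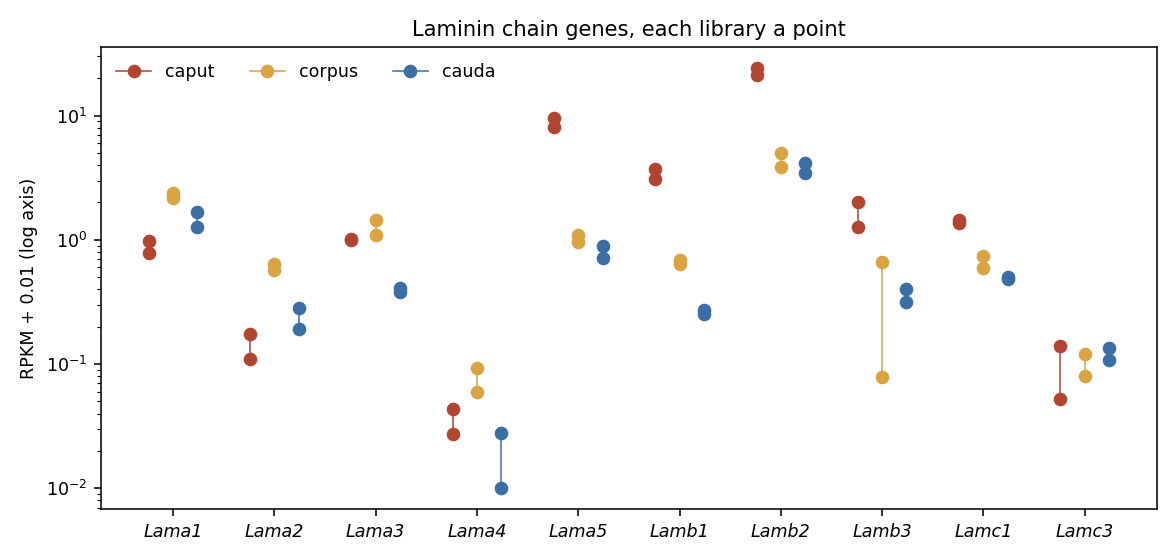
RPKM plus 0.01 (log axis) of 10 laminin chain genes by region; points are libraries, joined within a region. Lamb3 in corpus spans 0.650 to 0.0690 RPKM, and Lama3 lies lowest in cauda (0.372 and 0.400 RPKM).

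Trp63 was lower in each region further along the duct. It had 2.13 and 3.06 RPKM in caput, 1.20 and 1.03 RPKM in corpus, and 0.715 and 0.431 RPKM in cauda, from 626 and 789, 194 and 185, and 112 and 72 reads. No region overlapped another. Trp63 was higher in caput by 1.16 ± 0.26 log2 against corpus (adjusted p = 0.00399, edgeR) and by 2.12 ± 0.27 log2 against cauda (adjusted p = 0.000170). Corpus exceeded cauda by 0.96 ± 0.28 log2 (adjusted p = 0.0293, edgeR). Of 17 alternative settings, 5 did not make this call, among them omission of corpus 1, corpus 2 or cauda 2. The values under the 17 ranged from 0.43 to 1.36 log2. Beside Trp63, Krt5 was higher in caput than in corpus by 2.45 ± 0.44 log2 (adjusted p = 0.00546, edgeR) and than in cauda by 2.29 ± 0.43 log2 (adjusted p = 0.00645). Corpus against cauda was not called for Krt5 (-0.15 ± 0.46 log2, adjusted p = 0.840). Caput 2 held more Trp63, Krt5, Krt14 and Lamb3 than caput 1. Of the p53 family, Trp53 had 24.5 and 24.3 RPKM in caput, 14.2 and 13.3 RPKM in corpus, and 11.4 and 10.1 RPKM in cauda, and Trp73 had too few reads to test.

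Taken by region, 8 of 9 genes were called higher in caput than in cauda and 0 lower, where 33.9% of all tested genes were called higher and 33.0% lower. The median over the 9 genes was 1.65 log2, against 0.04 over all tested genes. Against corpus, 6 of 9 were called higher in caput and 1 lower, with backgrounds of 33.2% and 31.8%, and the medians were 1.88 log2 for the 9 genes and 0.04 over all. The gene called lower was Itga6, and Lama3 and Lamb3 were not called. Corpus against cauda called 4 higher (Itga6, Dst, Lama3 and Trp63) and 1 lower (Itga3), with backgrounds of 17.3% and 18.0%, and medians of 0.31 log2 and 0.00. In the test of any difference among regions 8 of 9 were called, Lamb3 being the exception (adjusted p = 0.0707), in a table where 75.1% of genes were called. The 3 comparisons share libraries and are not independent.

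**Figure D4:**
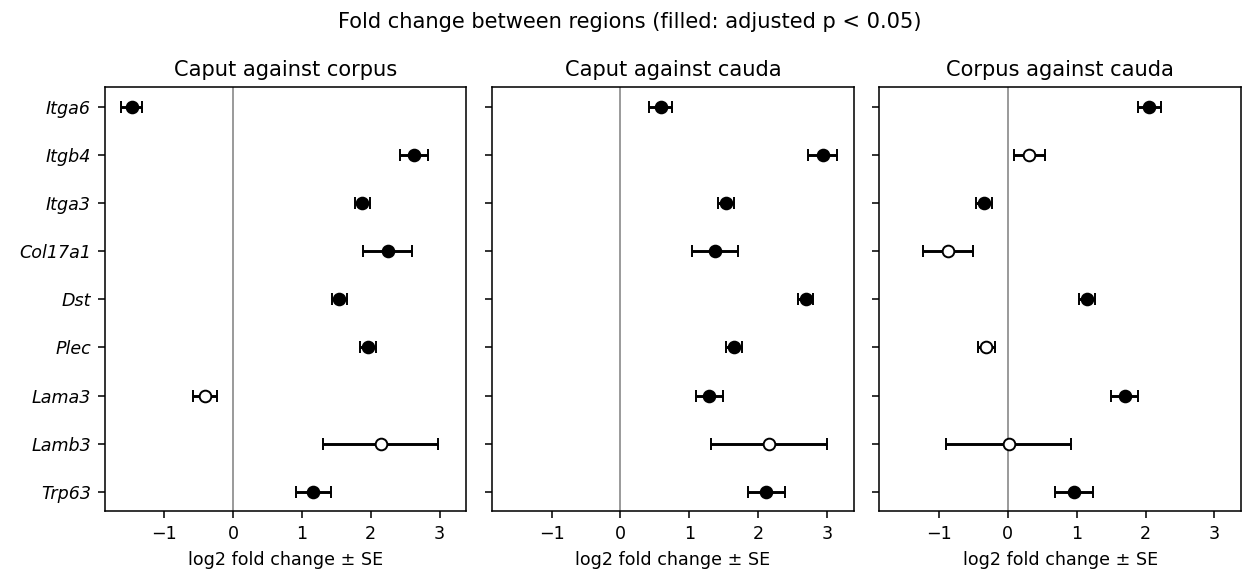
Log2 fold change ± SE (horizontal axes) of the 9 genes in the 3 comparisons, positive where the first region is higher; filled points have an adjusted p under 0.05 (edgeR). All 9 values lie above 0 for caput against cauda, and Itga6 lies at -1.47 for caput against corpus and 2.06 for corpus against cauda.

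The share of calls in each direction depended on scaling. With library totals the median over all tested genes moved to 0.63 log2 for caput against corpus, 0.89 for caput against cauda and 0.27 for corpus against cauda. The background shares became 53.3% higher and 18.8% lower, 60.1% and 16.2%, and 32.6% and 11.0% in these comparisons. The 9 genes then had 7 higher and 1 lower, 9 and 0, and 4 and 0. Itga6 stayed lower in caput than in corpus, at -0.88 log2 (adjusted p = 0.000583).

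The order of levels changed between regions. In caput, Itga3 led with a mean of 11.8 RPKM ± 0.0690 (SD, n = 2), followed by Itgb4 (5.15 ± 0.761), Plec (3.27 ± 0.253), Trp63 (2.60 ± 0.661) and Dst (2.26 ± 0.176). Below these, Itga6 had a mean of 1.80 ± 0.235, Lamb3 1.64 ± 0.545, Col17a1 1.20 ± 0.160 and Lama3 0.991 ± 0.0127. The libraries of Trp63 and Dst overlapped, as did those of Itga6 and Lamb3 and of Lamb3 and Col17a1. In corpus, Itga6 led with 4.80 ± 0.469 RPKM, ahead of Itga3 with 3.06 ± 0.262, and the other genes averaged 1.26 RPKM or less. Neighbours with overlapping libraries in corpus were Lama3 and Trp63, Plec and Itgb4, Itgb4 and Dst, and Lamb3 and Col17a1. In cauda, Itga3 led again with 3.89 ± 0.481 RPKM, followed by Itga6 with 1.15 ± 0.179 and Plec with 0.997 ± 0.127, which overlapped, and Itgb4, Trp63 and Col17a1 came next, each overlapping its neighbour. Lama3, Lamb3 and Dst closed the order, overlapping in turn, with Dst at 0.335 ± 0.00583. By RPKM, Itga3 in caput exceeded 74.0% of tested genes, and Dst in cauda 16.9%. The place of Dst among other genes and its ratio to Plec rest on the deposited length of 29746 bases. Its longest coding transcript in GENCODE M21 has 23279 bases, and a shorter length would raise the Dst values.

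Other genes of matrix adhesion were counted from lists, by the same test and against the same background shares. Of 18 further matrix receptors, 15 were higher in caput than in corpus, 15 in caput than in cauda and 8 in corpus than in cauda, with 0 lower and list medians of 1.80, 2.38 and 0.71 log2. The heparan sulfate proteoglycan gene Sdc4 had 52.0 and 48.1 RPKM in caput, 8.19 and 7.68 RPKM in corpus, and 3.90 and 3.80 RPKM in cauda. The integrin chain gene Itgb5 had 52.4 and 48.9 RPKM in caput, 10.1 and 8.26 RPKM in corpus, and 4.50 and 4.79 RPKM in cauda. Of 9 further laminin chains, 5 were higher and 2 lower in caput than in corpus, 5 higher and 1 lower than in cauda, and 3 higher and 1 lower in corpus than in cauda, with medians of 1.02, 1.36 and 0.44 log2. Lamb1, a beta chain of other laminins, had 3.71 and 3.08 RPKM in caput, 0.627 and 0.676 RPKM in corpus, and 0.243 and 0.261 RPKM in cauda. Of 13 other basement membrane genes, 7 were higher and 2 lower in caput than in corpus, 7 higher and 3 lower than in cauda, and 1 higher and 2 lower in corpus than in cauda. Their medians were 1.70, 1.24 and -0.12 log2, the last turning to 0.15 log2 under library totals.

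Of 4 other plakins in the table (Dsp, Ppl, Evpl and Macf1), 4 were higher in caput than in corpus and 4 than in cauda, and 1 (Evpl) was higher in corpus than in cauda (medians 1.44, 1.62 and 0.30 log2). Of 16 focal adhesion genes, which link integrins to actin rather than keratin, 12 were higher and 1 lower in caput than in corpus, 13 higher and 0 lower than in cauda, and 4 higher and 1 lower in corpus than in cauda (medians 0.89, 1.10 and 0.22 log2). Parva, an actin-binding adaptor, had 15.0 and 12.8 RPKM in caput, 3.82 and 3.68 RPKM in corpus, and 1.19 and 1.44 RPKM in cauda. Of 13 genes of desmosomes, the keratin-anchored junctions between cells, 9 had enough reads. Among these, 5 were higher and 0 lower in caput than in corpus, 6 higher and 1 lower than in cauda, and 3 higher and 1 lower in corpus than in cauda (medians 0.75, 0.78 and 0.09 log2). Of 10 tested basal cell markers other than the 9 genes, 6 were higher and 1 lower in caput than in corpus, 8 higher and 1 lower than in cauda, and 2 higher and 2 lower in corpus than in cauda. Their medians were 1.73, 1.37 and -0.16 log2, the last turning to 0.12 log2 under library totals. Ngfr and Aqp3, of the same list of 12, were at 0 in some libraries and too low to test. Under library totals, 53.3%, 60.1% and 32.6% of all tested genes were higher in the 3 comparisons, and 18.8%, 16.2% and 11.0% lower. The 18 matrix receptors then had 16, 16 and 12 higher and 0 lower. The 16 focal adhesion genes had 15, 16 and 10 higher and 1, 0 and 1 lower. The 9 laminin chains had 5, 5 and 7 higher and 2, 0 and 1 lower. The 13 basement membrane genes had 9, 9 and 2 higher and 1, 2 and 2 lower. The 4 other plakins had 4, 4 and 3 higher and 0 lower. The 9 tested desmosome genes had 8, 7 and 4 higher and 0, 0 and 1 lower. The 10 tested basal cell markers had 9, 8 and 3 higher and 1, 1 and 2 lower.

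The genes whose pattern over the 6 libraries lay nearest to each member were found by the root mean square difference of log2 CPM. Each gene was centred on its own mean. Tested genes without a symbol, and those with Gm, Rik, accession-like or digit-led names, were left out of this search. Plec and Itga3 were near neighbours, at 0.0692 log2 from each other, with Farp1 and Fam102a close to both. Col17a1 lay nearest to Col7a1, the collagen of anchoring fibrils beneath hemidesmosomes, at 0.113 log2. Col7a1 had 1.08 and 1.44 RPKM in caput, 0.368 and 0.166 RPKM in corpus, and 0.381 and 0.438 RPKM in cauda. The nearest genes were Trip10 for Itgb4 (0.0775 log2), Cdc14a for Dst (0.0772), Cenpt for Itga6 (0.134), Rfx3 for Lama3 (0.145), Rln1 for Trp63 (0.141) and Stx11 for Lamb3 (0.181). The nearest of the other 8 genes was Dst for Itgb4 (0.498 log2, place 644 among the genes searched). It was Lama3 for Itga6 (0.475, place 212) and Dst for Trp63 (0.380, place 204). For scale, the median distance over all tested genes was 1.38 log2 from Itgb4, 1.03 from Itga6 and 1.01 from Trp63.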

How the data were processed

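The authors deposited gene-level read counts for each of 6 libraries and 1 table of RPKM. Per the file names, counting ignored strand, so reads of overlapping antisense genes cannot be told apart; STAR, HTSeq, edgeR and mm9 are named in the submitters' processing notes, with no versions. The deposited RPKM equal the counts over the deposited gene length (in bases) and over a library size multiplied by 0.774 to 1.39. Records in no feature were 6.67% to 9.48%, ambiguous 1.39% to 1.83% and without a unique position 33.1% to 38.6%, and were left out.

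Counts were tested in edgeR 4.0.16 (R 4.3.3) with filterByExpr, TMM and two-sided quasi-likelihood F tests. The design held region alone, over 6 libraries, leaving 3 residual degrees of freedom. The SE is the absolute log2 fold change over the square root of F. The steps were also run on simulated counts that gave every gene the same spread between libraries. Such a run does not measure how reliable the calls in these libraries are. Within a region, the 2 libraries differed beyond counting noise (chi-square per degree of freedom 9.57 to 17.2). Nothing in the labels says that both pools of a region came from separate mice, so the p-values reflect only the spread of these libraries, which may be technical. Alternatives included DESeq2 1.42.0 and limma 3.58.1.

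The members and lists were chosen with earlier results of these data known. All 9 genes are named. From each list, the genes that could be named were those called in all 3 comparisons, up to 4 a list, plus preset genes. Where none was called in all 3, they were the 2 with the smallest p. Members of the plakin list, Car2, Crisp1, Cdh5, Ngfr, Aqp3, Trp73 and Col7a1 are named beyond that rule. Eppk1 and Adgre1 matched no row by symbol. Some genes of the lists entered the counts and are not reported here by name.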

Additional observations from a re-analysis of the deposited data

How the results depend on the processing

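Calls of Itgb4, Itga3, Col17a1, Dst, Plec and Trp63 in caput against both other regions, of Itga6 in caput against corpus and corpus against cauda, of Lama3 against cauda and of Dst in corpus against cauda held under every alternative that could test the gene. Of 453 fold changes under alternatives, 405 kept their direction and call. The members called between corpus and cauda numbered 3 with limma on log2(RPKM + 1), against 5, and 3 to 5 when 1 library was left out, with 3 without corpus 2. Leaving out 1 library gave 7 to 9 for caput against corpus, 7 to 9 for caput against cauda and 8 to 9 for any region. Values that changed sign were not called in the reported fit. They were Lama3 for caput against corpus under library totals (0.19 log2), and Lamb3 for corpus against cauda under limma with 0.1 (-0.33) or 1 (-0.0221) added to RPKM, the replicate block (-0.0581), the gene length offset (-0.0142) and both together (-0.0748). Lamb3 ranged from -2.31 to 0.89 log2 there when 1 library was left out. The cause was not tested.

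Same-numbered libraries deviated together weakly (correlations over 15816 genes of 0.187, 0.162 and 0.134), and 2 pairs a comparison do not settle whether the numbers pair them. With the replicate number as a block, 7, 8 and 6 members were called, against 7, 8 and 5, the added one being Plec, lower in corpus than in cauda (adjusted p = 0.0308). Requiring 10 CPM in 2 libraries removed Col17a1 and Lamb3, which had 6 to 51 reads in each corpus and cauda library, few reads for a fold change.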

Other observations

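Some genes of the matrix and desmosome lists had their highest RPKM outside caput. Nid2, a nidogen that bridges laminin and collagen networks, had 0.0501 and 0.165 RPKM in caput, 0.262 and 0.215 RPKM in corpus, and 2.25 and 2.23 RPKM in cauda, and was lower in caput than in cauda at -4.46 ± 0.45 log2 (adjusted p = 1.89e-05, edgeR). Perp, a desmosomal protein gene known as a target of p53 and p63, had 135 and 139 RPKM in caput, 50.2 and 50.3 RPKM in corpus, and 219 and 219 RPKM in cauda. Perp was lower in caput than in cauda at -0.74 ± 0.07 log2 (adjusted p = 1.10e-05), but 0.12 log2 and not called under library totals (adjusted p = 0.168), and it was lower in corpus than in cauda at -2.13 ± 0.07 log2 (adjusted p = 1.17e-07). Lama1, an alpha chain of other laminins, had 0.970 and 0.773 RPKM in caput, 2.38 and 2.17 RPKM in corpus, and 1.66 and 1.27 RPKM in cauda, and was lower in caput than in corpus at -1.44 ± 0.18 log2 (adjusted p = 7.21e-05).

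The libraries also differed in markers of other cells. For scale, 33.2% of all tested genes were called higher and 31.8% lower in caput than in corpus. The shares were 33.9% and 33.0% for caput against cauda, and 17.3% and 18.0% for corpus against cauda. Of 6 sperm transcripts, 3 were higher in caput than in corpus and 3 than in cauda, and they summed to 37.8 and 282 RPKM in caput, 0.321 and 1.58 RPKM in corpus, and 3.77 and 4.14 RPKM in cauda. The fibroblast and smooth muscle markers summed to 315 and 332 RPKM in caput, 79.2 and 73.6 RPKM in corpus, and 204 and 247 RPKM in cauda, Dcn giving 307 and 308 RPKM of the caput sums. Of these 10 markers, 1 was higher and 1 lower in caput than in corpus, and 1 higher and 5 lower than in cauda. In corpus, 0 were higher and 4 lower than in cauda. Under library totals the counts were 4 and 0, 2 and 3, and 0 and 4. The shares of all tested genes were then 53.3% and 18.8%, 60.1% and 16.2%, and 32.6% and 11.0%. Endothelial markers summed to 3.05 and 4.44 RPKM in caput, 39.0 and 44.9 RPKM in corpus, and 1.502 and 2.19 RPKM in cauda, mostly Egfl7, while Cdh5 was at 0 in 5 of 6 libraries. Of the 5 endothelial markers tested, 0 were higher and 2 lower in caput than in corpus, 1 higher and 1 lower than in cauda, and 1 higher in corpus than in cauda. Leukocyte markers summed to 5.46 and 9.71 RPKM in caput, 14.8 and 14.0 RPKM in corpus, and 4.37 and 8.69 RPKM in cauda, with 1 of 5 tested higher in caput than in corpus, 1 than in cauda and 0 called between corpus and cauda. Dissociation response genes summed to 2112 and 2048 RPKM in caput, 1875 and 1713 RPKM in corpus, and 1062 and 1001 RPKM in cauda, and 6 were higher and 2 lower in caput than in corpus, 8 of 8 higher in caput than in cauda and 8 of 8 in corpus than in cauda. Their part in the members' values was not tested.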
